A study of Homo sapiens with 24 samples.

Results

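The genes described here are the nuclear genes for the protein subunits of the mitochondrial respiratory chain and ATP synthase. They were taken by symbol from the table of gene values: names starting with NDUFA, NDUFB, NDUFC, NDUFS or NDUFV, SDHA to SDHD, UQCR, CYC1, COX4I, COX5 to COX8, ATP5F1, ATP5M or ATP5P. Another 12 names with these beginnings were left out, as assembly factors (NDUFAF), divergent transcripts, a pseudogene or a read-through. The rule found 81 of the 13033 genes in the table. Of these, 37 belong to complex I, 4 to complex II, 10 to complex III, 13 to complex IV and 17 to complex V. NDUFA4 and its paralog NDUFA4L2 were counted with complex IV, where NDUFA4 protein resides. The isoform genes COX4I2, COX6A2, COX6B2, COX7A1, COX7B2 and COX8C were not analysed here.

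The measurements were poly(A) RNA sequencing of the human acute myeloid leukaemia cell lines OCI-AML3 (OCIAML-3 in the labels, genotype NRAS Q61L) and Molm-14 (genotype FLT3-ITD), both labelled as myeloid cells. Each line was treated with 25 nM of the RAS(ON) inhibitor RMC-7977, which targets RAS proteins in their active state, for 2 h or 24 h, or with the solvent DMSO. The groups were OCI-AML3 at 2 h (n = 4 libraries), 24 h (n = 3) and in DMSO (n = 4), and Molm-14 at 2 h, 24 h and in DMSO (n = 4 each). The labels put all libraries in 1 batch. The third OCI-AML3 library at 24 h was not analysed here. The labels give no time for DMSO, so the same DMSO libraries of a line served as the control at both times, and the comparisons at 2 h and 24 h share them. Whether libraries of 1 group stem from separate cultures is not stated, and p-values here reflect library-to-library spread alone, which may be technical. Each line is a single model of its genotype, so genotype and line cannot be told apart.

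Complexes I to IV pass electrons from NADH and succinate to oxygen in the inner mitochondrial membrane. Complexes I, III and IV pump protons on the way, and complex V, the ATP synthase, lets them flow back to make ATP. Most subunits are encoded in the nucleus, made in the cytosol and imported, and a small set is encoded in the mitochondrial genome, so that both genomes contribute to complexes I, III, IV and V. Many leukaemia cells, OCI-AML3 and Molm-14 among them, are studied for their reliance on this pathway.

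The promoters of 4 members are printed because these genes mark the range of the response described below. ATP5MC1 and ATP5MC2 encode the same mature ATP synthase c subunit and stood at opposite ends of complex V at 24 h. NDUFS6 (complex I) and UQCRQ (complex III) were among the deepest falls. The sequences are from RefSeq on GRCh38.p14, run 5′ to 3′ on the strand of the gene, and cover 280 bases, of which 250 lie before the listed start site and 30 from it onwards. Capitals mark matches to the motif letters searched.
ATP5MC1 chr17:48892537-48892816 (plus strand): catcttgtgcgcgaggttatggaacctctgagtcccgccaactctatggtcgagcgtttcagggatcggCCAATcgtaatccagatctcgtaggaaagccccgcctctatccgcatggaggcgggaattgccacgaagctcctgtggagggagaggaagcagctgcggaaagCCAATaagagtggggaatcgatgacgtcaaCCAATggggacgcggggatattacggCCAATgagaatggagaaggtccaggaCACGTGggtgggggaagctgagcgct
ATP5MC2 chr12:53676054-53676333 (minus strand): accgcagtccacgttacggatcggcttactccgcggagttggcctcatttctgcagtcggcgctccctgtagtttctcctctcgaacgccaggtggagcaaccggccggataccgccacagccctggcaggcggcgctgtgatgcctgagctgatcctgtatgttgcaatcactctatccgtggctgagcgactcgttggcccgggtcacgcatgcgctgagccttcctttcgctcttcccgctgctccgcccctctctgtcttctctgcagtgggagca
NDUFS6 chr5:1801157-1801436 (plus strand): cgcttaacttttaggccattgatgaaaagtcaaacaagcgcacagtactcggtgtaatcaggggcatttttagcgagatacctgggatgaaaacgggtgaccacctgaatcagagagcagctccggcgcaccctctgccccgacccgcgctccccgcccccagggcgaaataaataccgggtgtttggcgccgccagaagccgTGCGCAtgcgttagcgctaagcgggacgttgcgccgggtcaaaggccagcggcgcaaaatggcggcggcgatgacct
UQCRQ chr5:132866392-132866671 (plus strand): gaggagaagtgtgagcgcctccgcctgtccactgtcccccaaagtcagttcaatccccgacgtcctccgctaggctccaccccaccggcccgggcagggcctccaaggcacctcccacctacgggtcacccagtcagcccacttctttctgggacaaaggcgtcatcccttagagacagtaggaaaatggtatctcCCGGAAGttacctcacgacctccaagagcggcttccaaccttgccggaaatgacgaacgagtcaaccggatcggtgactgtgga
The ATP5MC1 window holds CCAAT 4 times, at -181, -78, -48 and -22 from the start site, and the E-box letters CACGTG at 5. The NDUFS6 window holds TGCGCA, a core of the NRF1 motif, at -47, and the UQCRQ window holds the ETS letters CCGGAAG at -54. None of the letters searched is in the ATP5MC2 window, whose listed start site lies inside the annotated span of the gene (chr12:53665170-53681423). A match describes letters in a window, and no match says nothing of any factor.

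The same letters were searched on both strands over 300 bases, 250 before to 50 after the start site, in the 65 members and the 10440 genes of the table with a promoter in the RefSeq table. TGCGCA was in 29.2% of the member promoters and 13.7% of all, CCGGAAG in 30.8% and 19.9%, and the YY1 core AAGATGG in 24.6% and 7.63%. CACGTG was in 10.8% and 10.2%, and CCAAT in 32.3% and 36.8%. Of the matches in member promoters, 2 overlapped another motif. The letters AAGATGG contain ATG, and many of their matches in members lay after the start site, as at 15 in NDUFA12. Others lay before it, as at -57 in ATP5PF. A match after the start site can hold the first codon of the protein. How far such codons make up the share of AAGATGG was not tested. At 24 h in OCI-AML3 the median log2 fold change against DMSO was -0.87 for members with CACGTG and -0.70 for those without. The medians with and without were -0.68 and -0.75 for TGCGCA, -0.74 and -0.73 for CCGGAAG, -0.60 and -0.75 for CCAAT, and -0.71 and -0.76 for AAGATGG. In Molm-14 at 24 h they were -0.54 and -0.50 for CACGTG, -0.57 and -0.50 for TGCGCA, -0.60 and -0.51 for CCGGAAG, -0.42 and -0.52 for CCAAT, and -0.54 and -0.51 for AAGATGG. The values depend on the strands searched. With matches on the strand of the gene alone, the OCI-AML3 medians with and without were -1.01 and -0.68 for CCGGAAG, -0.83 and -0.73 for CCAAT, and -0.87 and -0.73 for AAGATGG, so that the order turned for CCAAT and AAGATGG. In Molm-14 they were -0.68 and -0.49 for CCGGAAG, -0.59 and -0.51 for CCAAT, and -0.61 and -0.50 for AAGATGG. No test of these differences was made.

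The deposited values were log2 CPM (reads of a gene per 1e6 reads of a library size scaled by the authors). CPM is given here after taking off the floor of 0.105 CPM that all libraries shared. Summed over the table, CPM ran from 914526 to 1.058e+06 per library, so the sizes are effective ones and not read totals. Effective library sizes recovered from the spacing of low values ran from 15.4 M to 22.4 M (M, reads in units of 1e6), with a median of 18.4 M. A CPM is relative to this size and is not per length, so levels are compared between groups for 1 gene at a time. All 9 myeloid markers checked were in the table, among them PTPRC, CD33 and SPI1. Of 9 lymphoid and erythroid markers 0 were in it, of 4 epithelial markers KRT18 alone (at most 0.119 CPM in OCI-AML3 libraries and 6.54 to 9.70 CPM in Molm-14 libraries), and of 3 fibroblast markers COL1A2 alone. Fold changes are log2 fold changes ± SE from limma, computed on log2(CPM + floor), which understates changes of genes with few reads. A gene rose or fell at a Benjamini-Hochberg adjusted p below 0.05 over all 13033 genes.

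At 24 h of RMC-7977 nearly the whole set was lower in both lines. In OCI-AML3 76 of the 81 members (93.8%) fell and 2 rose, where 42% of all genes fell and 42.4% rose. In Molm-14 75 members (92.6%) fell and 3 rose, where 38.6% of all genes fell and 37.7% rose. The median log2 fold change of the members was -0.74 in OCI-AML3 and -0.54 in Molm-14, and that of all genes was 0.01 and 0.00. The falls were of moderate size: 27 members fell at least 2-fold in OCI-AML3, beside 17.1% of all genes, and 6 did so in Molm-14, beside 6.57%. All 3 libraries at 24 h lay below all DMSO libraries for 76 members in OCI-AML3 (background 41%), and all 4 did so for 73 members in Molm-14 (background 36.6%). RNA from bulk samples cannot show whether fewer cells of a type or less RNA per cell lie behind a lower share.

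The 5 members outside the fall in OCI-AML3 at 24 h were UQCRHL and NDUFB5, which rose, and NDUFS4 (-0.07), COX7A2L (-0.08) and UQCRH (0.09), which did not pass the test. In Molm-14 the 6 were NDUFC1, NDUFB5 and UQCRHL, which rose, and NDUFB4 (-0.10), UQCRB (-0.04) and ATP5MC2 (0.08). The summed CPM of the 81 genes made up 1.08% ± 0.025 of the OCI-AML3 libraries at 2 h, 0.731% ± 0.014 at 24 h and 1.05% ± 0.046 in DMSO (SD). In Molm-14 the share was 1.23% ± 0.028 at 2 h, 0.971% ± 0.011 at 24 h and 1.26% ± 0.024 in DMSO. Library totals, in place of the authors' scaling, moved the median of all genes in OCI-AML3 at 24 h to 0.18 and that of the members to -0.57, with 69 members lower, 16 of them at least 2-fold, and 3 higher.

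**Figure D1:**
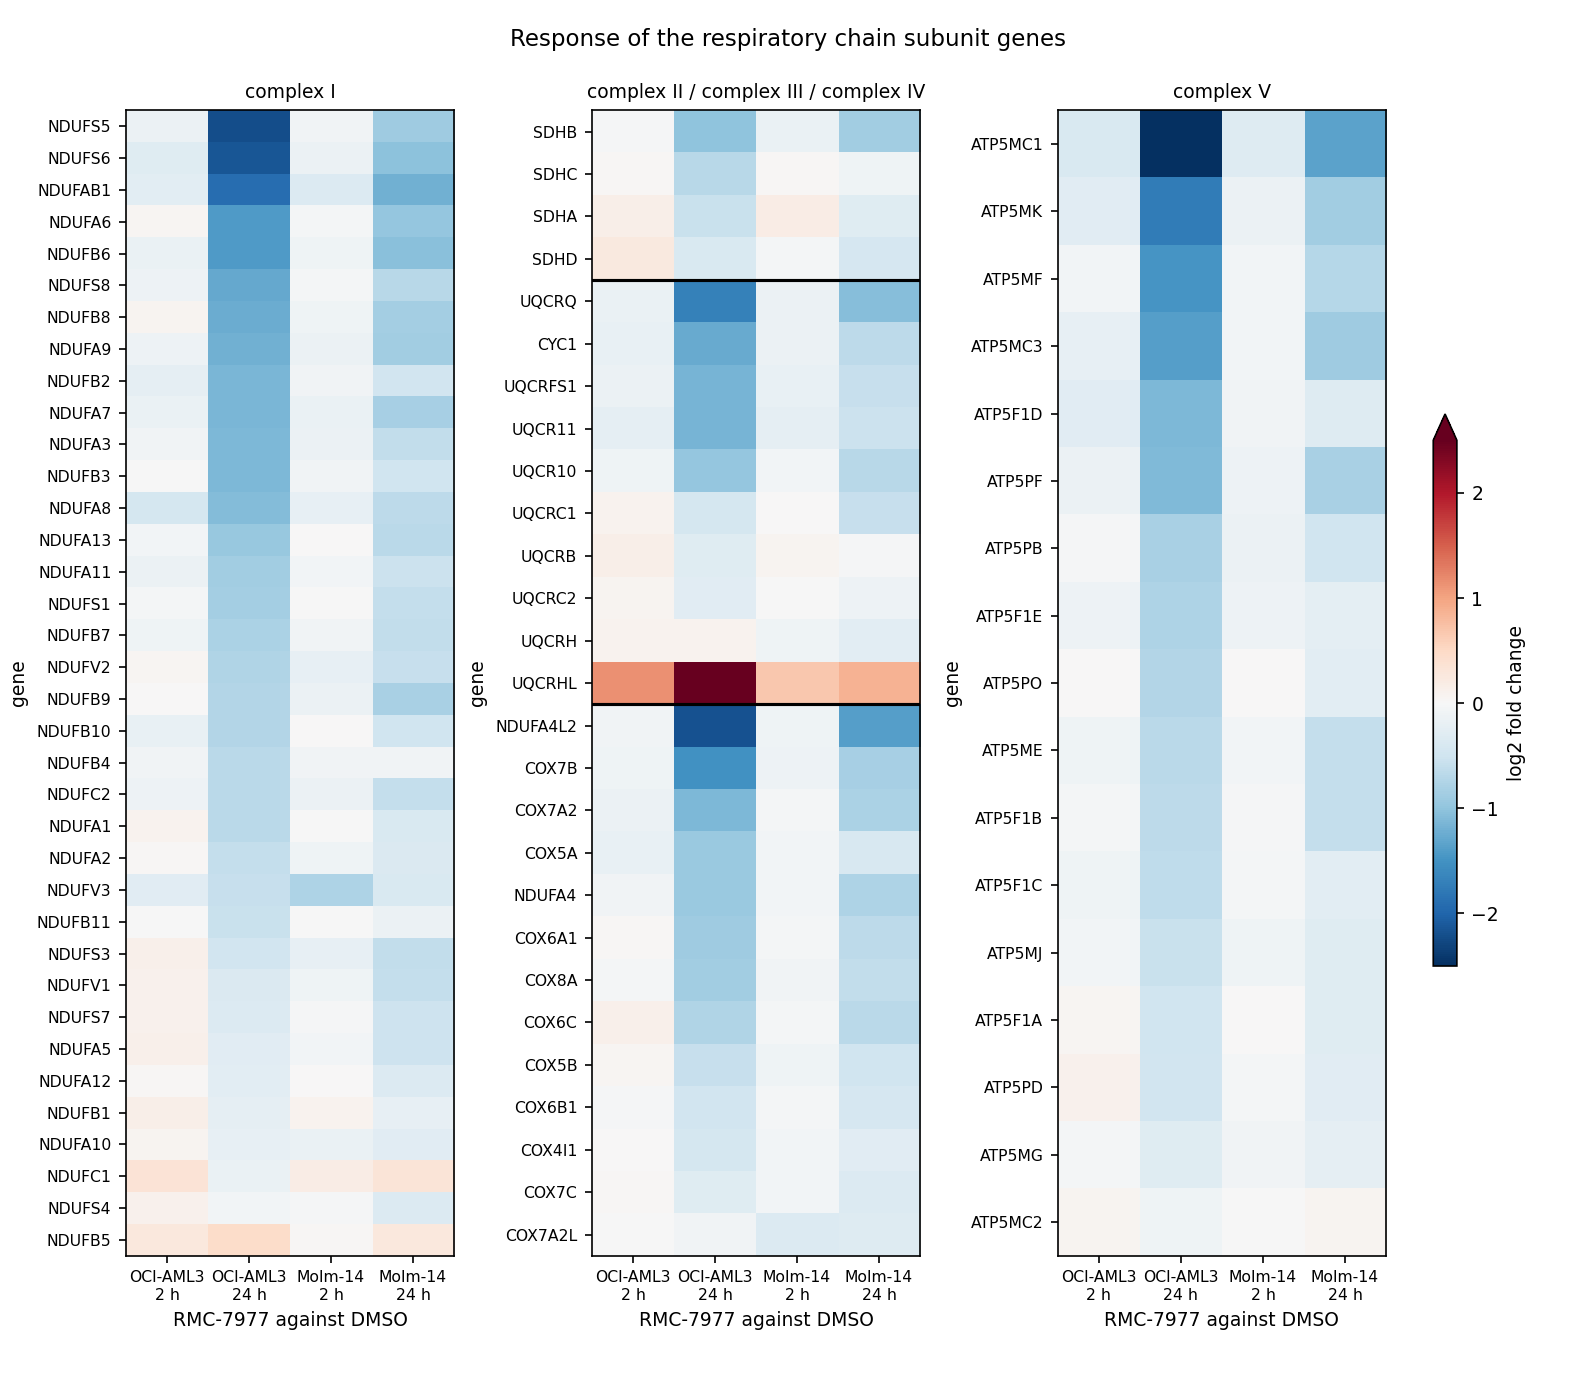
Log2 fold change against DMSO (colour) of the genes reported by name (down the page, ordered within a complex by OCI-AML3 at 24 h) in 4 comparisons (columns); black lines part complexes II, III and IV. The 24 h columns are blue for nearly all genes, the 2 h columns are pale, and UQCRHL (3.56 in OCI-AML3 at 24 h) lies beyond the colour scale.

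At 2 h little had changed. In OCI-AML3 21 members (25.9%) fell and 6 rose, fewer than the 30.8% and 31.4% of all genes, with a member median of -0.04 beside 0.02 for all genes. In Molm-14 19 members (23.5%) fell and 2 rose, beside 30.8% and 28.7% of all genes, with medians of -0.08 and 0.00. UQCRHL in OCI-AML3 was the single member with a 2-fold change at this time, where 3.23% of all genes rose at least 2-fold in that line. The OCI-AML3 balance depended on the scaling and on a single library: it was 13 lower and 24 higher with library totals, 15 lower and 13 higher with median-of-ratios scaling, and 13 lower and 15 higher without DMSO replicate 3. That DMSO library was 0.13 above its group in the mean log2 CPM of the members.

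The direct comparison of the treated times gave the same picture of a late change. Between 24 h and 2 h, 77 members fell and 2 rose in OCI-AML3 (background 39.1% and 38.5%, member median -0.71), and 72 fell and 2 rose in Molm-14 (background 34.8% and 33.4%, median -0.44). The 2 rises in Molm-14 were NDUFB5 (0.24) and NDUFV3 (0.40), and in OCI-AML3 they were NDUFB5 (0.19) and UQCRHL (2.42). NDUFV3, an accessory subunit next to the NADH-oxidising site of complex I, was the member with an early fall and partial return in Molm-14. It stood at 27.2, 28.4, 28.4 and 29.5 CPM at 2 h and at 34.9, 35.0, 37.6 and 42.6 CPM at 24 h, against 47.0, 47.2, 48.8 and 51.2 CPM in DMSO. The 3 groups did not overlap, and the 2 h libraries were the lowest (-0.77 ± 0.06 at 2 h, adjusted p = 4.44e-13; -0.37 ± 0.06 at 24 h, adjusted p = 5.52e-07).

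Most members of each of the 5 complexes fell at 24 h. In OCI-AML3 the median log2 fold change was -0.74 for complex I, -0.62 for II, -0.70 for III, -0.87 for IV and -0.73 for V. The counts of falls were 35 of 37, 4 of 4, 8 of 10, 12 of 13 and 17 of 17 in the same order of complexes. In Molm-14 the medians were -0.58 for complex I, -0.36 for II, -0.55 for III, -0.62 for IV and -0.33 for V, with falls of 34, 4, 8, 13 and 16 members. Complex IV had the lowest median in both lines, and complexes II and V had the smallest shifts in Molm-14. These orders are descriptions, and no test of a difference between complexes was made. The 3 libraries of OCI-AML3 at 24 h differed little: the mean of the members' log2 CPM lay between 0.74 and 0.81 below the DMSO mean, and in the 4 Molm-14 libraries between 0.49 and 0.54 below it.

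**Figure D2:**
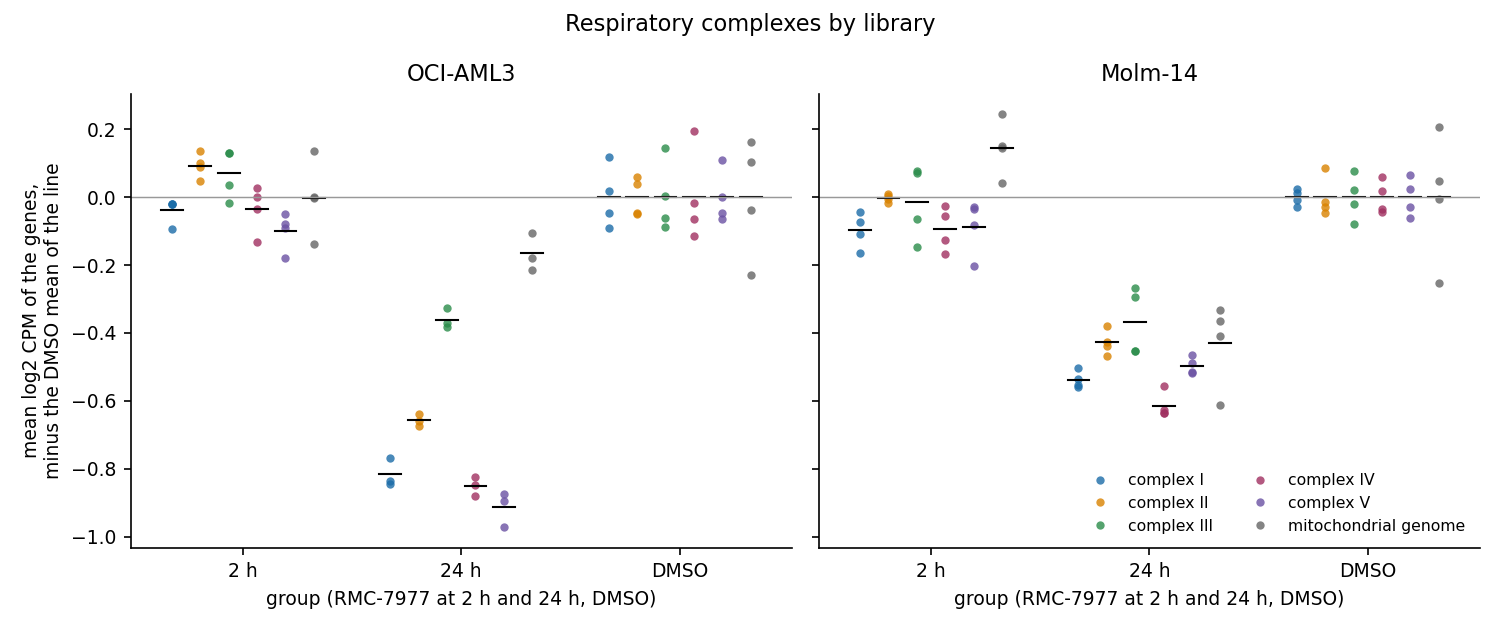
Mean log2 CPM of the genes of each complex in each library (points) minus the DMSO mean of the line (y axis), by group (x axis), with group means as black bars and the 13 protein genes of the mitochondrial genome in grey. At 24 h complexes I, IV and V lie lowest in OCI-AML3 (means of -0.82, -0.85 and -0.91), and the grey points at -0.17 lie above all 5 complexes. The complex III mean of -0.36 there includes the rise of UQCRHL (3.56), a gene with few reads. The median log2 fold change of complex III was -0.70.

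Complex I, which takes electrons from NADH, has a catalytic core shared with bacteria and a shell of accessory subunits that stabilise it. All 7 nuclear core genes fell at 24 h in both lines, with medians of -0.48 in OCI-AML3 and -0.59 in Molm-14. Of the 30 accessory genes 28 fell in OCI-AML3 (median -0.77) and 27 in Molm-14 (-0.53). The deepest core fall in OCI-AML3 was NDUFS8 (-1.28), which carries iron-sulphur clusters, while NDUFS7 (-0.34) and NDUFV1 (-0.36) fell least. The 3 deepest falls of the complex were accessory genes.

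NDUFS5, an accessory subunit facing the intermembrane space, stood at 148, 152, 157 and 167 CPM in OCI-AML3 at 2 h and 35.0, 36.5 and 38.7 CPM at 24 h, against 159.5, 162, 173 and 194 CPM in DMSO. Molm-14 libraries had 134, 142, 152 and 161 CPM at 2 h and 81.4, 84.0, 85.1 and 87.97 CPM at 24 h, against 149.6, 157, 159.8 and 162 CPM in DMSO. The 24 h libraries lay below all others of their line, and the 2 h libraries overlapped DMSO. The fall at 24 h was -2.22 ± 0.06 in OCI-AML3 (adjusted p = 2.58e-24) and -0.89 ± 0.06 in Molm-14 (adjusted p = 7.16e-15). The small fall at 2 h in OCI-AML3 (-0.14, adjusted p = 0.0354) lost its call under both other scalings and without DMSO replicate 3 (-0.08, adjusted p = 0.215), among other single libraries. NDUFS5 lies at chr1:39026350-39034615.

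NDUFS6 (chr5:1801407-1816048, plus strand), an accessory subunit that binds zinc and whose promoter is printed above, fell in the same way. Its values in OCI-AML3 were 182, 185, 185 and 198 CPM at 2 h and 50.7, 51.2 and 56.1 CPM at 24 h, against 226, 230.3, 231 and 239 CPM in DMSO. In Molm-14 they were 120.0, 126, 136 and 138 CPM at 2 h and 68.1, 69.5, 71.6 and 73.6 CPM at 24 h, against 137, 138, 149 and 151 CPM in DMSO. In OCI-AML3 the 3 groups were separate, in descending order from DMSO to 24 h, and in Molm-14 the 2 h and DMSO libraries overlapped slightly. The log2 fold change at 24 h was -2.14 ± 0.05 in OCI-AML3 (adjusted p = 6.72e-26) and -1.02 ± 0.05 in Molm-14 (adjusted p = 2.63e-18), and at 2 h it was -0.31 ± 0.05 and -0.15 ± 0.05, both called. The call in Molm-14 at 2 h ended without 2 h replicate 1 (-0.11, adjusted p = 0.0508).

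NDUFAB1, the mitochondrial acyl carrier protein, which also serves fatty acid and lipoic acid synthesis, was lower at both times in both lines. It stood at 58.2, 61.0, 62.0 and 64.9 CPM in OCI-AML3 at 2 h and 18.5, 19.0 and 21.2 CPM at 24 h, against 68.8, 69.0, 73.5 and 84.2 CPM in DMSO. The Molm-14 values were 64.9, 68.4, 71.5 and 72.1 CPM at 2 h and 36.7, 37.0, 37.3 and 39.7 CPM at 24 h, against 83.2, 83.2, 90.8 and 92.4 CPM in DMSO. No treated library reached a DMSO library of its line. The fall was -0.26 ± 0.06 at 2 h and -1.91 ± 0.06 at 24 h in OCI-AML3 (adjusted p = 0.000381 and 3.61e-22), and -0.34 ± 0.06 and -1.21 ± 0.06 in Molm-14 (adjusted p = 1.48e-05 and 1.24e-17).

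NDUFA8, a disulphide-rich accessory subunit of the intermembrane space side, had the deepest 2 h fall of OCI-AML3. It stood at 75.3, 78.7, 80.5 and 83.2 CPM at 2 h and 49.6, 50.6 and 51.1 CPM at 24 h, against 101, 102, 109 and 119 CPM in DMSO, with no overlap between the groups (-0.44 ± 0.05 at 2 h, adjusted p = 9.68e-09; -1.09 ± 0.05 at 24 h, adjusted p = 9.19e-18). NDUFV3 also fell there at 2 h, to 60.7, 61.0, 63.8 and 67.3 CPM, against 74.1, 75.8, 78.8 and 79.8 CPM in DMSO (-0.29 ± 0.06, adjusted p = 5.31e-05).

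NDUFB5 and NDUFC1, accessory subunits of the membrane arm, went the other way. NDUFB5 stood at 69.1, 75.4, 75.9 and 76.4 CPM in OCI-AML3 at 2 h and 79.7, 85.2 and 89.2 CPM at 24 h, against 58.8, 59.1, 59.6 and 68.3 CPM in DMSO. In Molm-14 it stood at 74.2, 78.3, 81.7 and 87.3 CPM at 2 h and 89.0, 95.2, 96.5 and 99.0 CPM at 24 h, against 74.6, 77.8, 78.5 and 83.2 CPM in DMSO. Every 24 h library was above every DMSO library in both lines. The rise at 24 h was 0.46 ± 0.06 in OCI-AML3 (adjusted p = 2.66e-08) and 0.27 ± 0.06 in Molm-14 (adjusted p = 5.21e-05), and at 2 h it was 0.27 ± 0.06 in OCI-AML3 (adjusted p = 8.53e-05).

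NDUFC1 split the lines at 24 h. In OCI-AML3 it stood at 30.3, 32.0, 32.6 and 35.2 CPM at 2 h and 21.5, 22.9 and 23.7 CPM at 24 h, against 24.2, 25.3, 26.0 and 26.7 CPM in DMSO. Molm-14 libraries had 34.6, 41.99, 42.3 and 42.6 CPM at 2 h and 42.3, 42.7, 45.0 and 46.0 CPM at 24 h, against 33.7, 34.7, 35.1 and 37.5 CPM in DMSO. It rose at 2 h in both lines (0.34 ± 0.06 in OCI-AML3, adjusted p = 1.81e-05; 0.19 ± 0.06 in Molm-14, adjusted p = 0.00862), and at 24 h the rise in Molm-14 was 0.32 ± 0.06 (adjusted p = 3.07e-05). In OCI-AML3 at 24 h it fell by 0.17 ± 0.07 (adjusted p = 0.0208), a call that ended with either other scaling (0.0028 with library totals), without DMSO replicate 3 (-0.15) and without 24 h replicate 4 (-0.13, adjusted p = 0.106). The difference in response between the lines was -0.49 ± 0.09 (adjusted p = 2.9e-05).

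Complex II, succinate dehydrogenase, is the one complex with no subunit from the mitochondrial genome. All 4 genes fell at 24 h in both lines, SDHB, the iron-sulphur subunit, most (-1.01 in OCI-AML3 and -0.87 in Molm-14). At 2 h the direction was the opposite for SDHA, the flavoprotein that oxidises succinate. SDHA stood at 624, 625, 632 and 633 CPM in OCI-AML3 at 2 h and 379.8, 385 and 391 CPM at 24 h, against 547, 550.0, 559 and 607 CPM in DMSO. The Molm-14 values were 302, 304, 307 and 325 CPM at 2 h and 221, 222, 223 and 225 CPM at 24 h, against 271, 272, 272 and 279.8 CPM in DMSO. In each line the 2 h libraries were highest and the 24 h libraries lowest, with no overlap. The rise at 2 h was 0.15 ± 0.03 in OCI-AML3 (adjusted p = 0.000356) and 0.18 ± 0.03 in Molm-14 (adjusted p = 5.56e-05), and the falls at 24 h were -0.55 ± 0.04 (adjusted p = 1.87e-14) and -0.30 ± 0.03 (adjusted p = 5.73e-09). SDHA has near-identical pseudogene copies, so its level is uncertain where the counting could split reads. SDHD, a membrane anchor, rose at 2 h in OCI-AML3, to 107, 107, 109.5 and 113 CPM, against 89.1, 90.9, 93.0 and 98.9 CPM in DMSO (0.23 ± 0.05, adjusted p = 0.000117).

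Complex III passes electrons from ubiquinol to cytochrome c. Its catalytic nuclear subunits CYC1, cytochrome c1, and UQCRFS1, the Rieske iron-sulphur protein, fell at 24 h, with log2 fold changes of -1.26 for CYC1 and -1.16 for UQCRFS1 in OCI-AML3 and of -0.66 and -0.58 in Molm-14. The core protein gene UQCRC2 fell less in both lines (-0.28 in OCI-AML3 and -0.13 in Molm-14). UQCRC1, the other core protein gene, fell less in OCI-AML3 (-0.44), while in Molm-14 (-0.57) it was close to UQCRFS1. The deepest fall was that of UQCRQ (chr5:132866642-132868847, plus strand), a small membrane subunit whose promoter is printed above. UQCRQ stood at 80.5, 88.2, 91.9 and 93.0 CPM in OCI-AML3 at 2 h and 30.04, 30.6 and 31.5 CPM at 24 h, against 90.5, 93.5, 96.6 and 121 CPM in DMSO. In Molm-14 it stood at 75.8, 83.7, 84.3 and 85.5 CPM at 2 h and 42.03, 43.6, 43.9 and 46.0 CPM at 24 h, against 86.7, 92.7, 93.2 and 93.6 CPM in DMSO. All 24 h libraries were below all others of their line (-1.695 ± 0.07 in OCI-AML3, adjusted p = 4.81e-20; -1.06 ± 0.06 in Molm-14, adjusted p = 1.79e-15). Its 2 h falls (-0.18 and -0.15) lost their calls with library totals and without several single libraries.

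UQCRH, the acidic hinge subunit, and UQCRHL, an almost identical gene on the same chromosome (chr1:15807374-15807649, against chr1:46303698-46316776 for UQCRH), stood apart from the rest. UQCRH stood at 304, 314, 332 and 337 CPM in OCI-AML3 at 2 h and 309.7, 325 and 333 CPM at 24 h, against 284, 287, 303 and 338 CPM in DMSO. These groups overlapped and the difference at 24 h was not called (0.09 ± 0.06, adjusted p = 0.135), though it was called higher with library totals (0.27), with median-of-ratios scaling (0.17) and without DMSO replicate 3 (0.15). In Molm-14 at 24 h UQCRH fell to 212, 214, 228 and 232 CPM, against 248, 255, 277 and 278 CPM in DMSO (-0.25 ± 0.05, adjusted p = 0.000103).

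UQCRHL was read far less. It had 1.49, 1.72, 2.54 and 3.08 CPM in OCI-AML3 at 2 h and 11.1, 11.8 and 12.6 CPM at 24 h, against 0.705, 0.827, 0.926 and 1.22 CPM in DMSO. The groups were separate, and all were far below UQCRH. Summed over libraries this is 164 reads at 2 h and 647 at 24 h, against 73 in DMSO, or ratios of 2.44 (95% interval 1.84 to 3.25) and 13.02 (10.2 to 16.8) after scaling for depth, where the intervals cover counting error only. The rise at 24 h was called (3.56 ± 0.40, adjusted p = 2.7e-09). In Molm-14 it had 24 reads at 2 h and 31 at 24 h, against 10 in DMSO, and its call at 24 h (adjusted p = 0.0369) ended with 1 CPM added to each value and without any of several single libraries. Since reads of UQCRH can be assigned to UQCRHL, both values are uncertain. UQCRH held 99.3% of the summed CPM of the pair in OCI-AML3 at 2 h, 96.5% at 24 h and 99.7% in DMSO.

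Complex IV, cytochrome c oxidase, reduces oxygen. All 13 genes fell in Molm-14 at 24 h and 12 fell in OCI-AML3. The common isoform genes COX4I1 (-0.45 in OCI-AML3 and -0.27 in Molm-14), COX6A1 (-0.89 and -0.65), COX6B1 (-0.48 and -0.42), COX7A2 (-1.12 and -0.78), COX7B (-1.51 and -0.83) and COX8A (-0.87 and -0.62) all fell. COX7B, a small supernumerary subunit, fell most of these. It stood at 47.7, 48.1, 48.6 and 51.4 CPM in OCI-AML3 at 2 h and 17.1, 18.8 and 19.4 CPM at 24 h, against 48.7, 50.5, 51.8 and 59.0 CPM in DMSO. Only the 24 h libraries were separate from DMSO (-1.51 ± 0.07, adjusted p = 9.34e-19).

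COX7A2L, which helps join complexes III and IV into supercomplexes, differed between the lines. In OCI-AML3 it stood at 74.7, 76.3, 81.5 and 83.9 CPM at 2 h and 75.1, 75.4 and 76.3 CPM at 24 h, against 76.4, 77.0, 78.4 and 89.1 CPM in DMSO. Molm-14 libraries had 104, 109, 110.0 and 115 CPM at 2 h and 104, 105, 115 and 116 CPM at 24 h, against 131, 138, 138 and 146 CPM in DMSO. The treated Molm-14 libraries were all below DMSO at both times, by similar amounts (-0.34 ± 0.05 at 2 h, adjusted p = 1.44e-06; -0.33 ± 0.05 at 24 h, adjusted p = 9.86e-07), and neither time was called in OCI-AML3.

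NDUFA4, a subunit of complex IV despite its name, and NDUFA4L2, a paralog known from hypoxia, both fell at 24 h. NDUFA4 stood at 40.4, 42.1 and 44.0 CPM in OCI-AML3 at 24 h, against 72.7, 77.8, 78.0 and 96.2 CPM in DMSO (-0.94 ± 0.07, adjusted p = 2.05e-13). NDUFA4L2 was at a low level throughout, at 0.332, 0.334 and 0.641 CPM in OCI-AML3 at 24 h, against 1.94, 2.02, 2.15 and 3.04 CPM in DMSO. The Molm-14 values were 1.98, 2.66, 3.14 and 3.28 CPM at 24 h, against 6.58, 6.58, 7.49 and 8.56 CPM in DMSO. These groups were separate in both lines, at 0.190 of the DMSO level in OCI-AML3 (24 reads against 186, interval 0.118 to 0.291) and 0.377 in Molm-14 (208 reads against 524, interval 0.319 to 0.443). NDUFA4L2 had the deepest log2 fold change of the members in Molm-14 (-1.39 ± 0.19, adjusted p = 8.54e-08).

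Complex V consists of the F1 head, which makes ATP, a ring of c subunits turned by protons, and stalks that join them. All 17 genes fell in OCI-AML3 at 24 h and 16 in Molm-14. The genes of the F1 head, ATP5F1A (-0.50 in OCI-AML3 and -0.30 in Molm-14) and ATP5F1B (-0.66 and -0.59), fell less than the deepest of the small membrane subunits, ATP5MK (-1.74 and -0.88) and ATP5MF (-1.47 and -0.71). The 5 small membrane subunits had medians of -0.68 in OCI-AML3 and -0.60 in Molm-14. Their smallest falls, -0.29 and -0.23, were less than those of both head genes. The peripheral stalk genes lay between -0.48 (ATP5PD) and -1.10 (ATP5PF) in OCI-AML3. ATP5MK stood at 23.9, 24.1 and 27.4 CPM in OCI-AML3 at 24 h, against 80.4, 81.3, 82.5 and 93.7 CPM in DMSO, with no overlap (adjusted p = 8.57e-21).

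The c subunit is made from 3 genes whose products differ in the import sequence and yield the same mature protein. They behaved unequally. ATP5MC1 (chr17:48892787-48895871, plus strand) stood at 68.4, 69.3, 72.7 and 73.0 CPM in OCI-AML3 at 2 h and 15.4, 16.1 and 17.8 CPM at 24 h, against 84.4, 88.6, 97.7 and 99.7 CPM in DMSO. In Molm-14 it stood at 102, 102, 108 and 113 CPM at 2 h and 49.3, 51.9, 52.8 and 55.4 CPM at 24 h, against 131, 131, 133 and 133 CPM in DMSO. In both lines the 3 groups were fully separate, with 24 h lowest. Its log2 fold change in OCI-AML3 was -0.38 ± 0.05 at 2 h (adjusted p = 2.77e-07) and -2.48 ± 0.06 at 24 h (adjusted p = 2.9e-26), the deepest of all members. In Molm-14 it was -0.31 ± 0.05 at 2 h (adjusted p = 7.08e-06) and -1.33 ± 0.05 at 24 h (adjusted p = 7.28e-20).

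ATP5MC3 fell as well at 24 h, to 65.1, 69.3 and 72.4 CPM in OCI-AML3, against 165, 176, 179.8 and 194 CPM in DMSO (-1.37 ± 0.05, adjusted p = 3.93e-22). In Molm-14 it fell to 134, 137, 141 and 142 CPM at 24 h, against 243, 258, 258 and 259.6 CPM in DMSO (-0.88 ± 0.04, adjusted p = 9.71e-18). ATP5MC2 moved little: it stood at 219.6, 225 and 249 CPM in OCI-AML3 at 24 h, against 239, 250.3, 253 and 257 CPM in DMSO, and at 272, 273, 275 and 279.9 CPM in Molm-14 at 24 h, against 249, 254, 256 and 287 CPM in DMSO. Its groups overlapped in both lines. The difference was called in OCI-AML3 (-0.11 ± 0.05, adjusted p = 0.0296), but not with either other scaling (0.06 with library totals) or without DMSO replicate 1 or 3 or 24 h replicate 2 or 4, and it was not called in Molm-14 (0.08 ± 0.04, adjusted p = 0.126). The summed CPM of the 3 genes was 316 ± 18.1 in OCI-AML3 at 24 h and 521 ± 20.9 in DMSO, and 466 ± 4.17 in Molm-14 at 24 h and 648 ± 23.8 in DMSO (SD). ATP5MC1 made up 5.20% ± 0.10 of that sum in OCI-AML3 at 24 h and 17.8% ± 1.1 in DMSO, and 11.2% ± 0.45 in Molm-14 at 24 h and 20.4% ± 0.61 in DMSO. ATP5IF1, the inhibitor of the ATP synthase, was at -0.16 in OCI-AML3 (called) and -0.06 in Molm-14 (not called) at 24 h, and DMAC2L, also named factor B, at 0.01 (not called) and -0.24 (called).

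**Figure D3:**
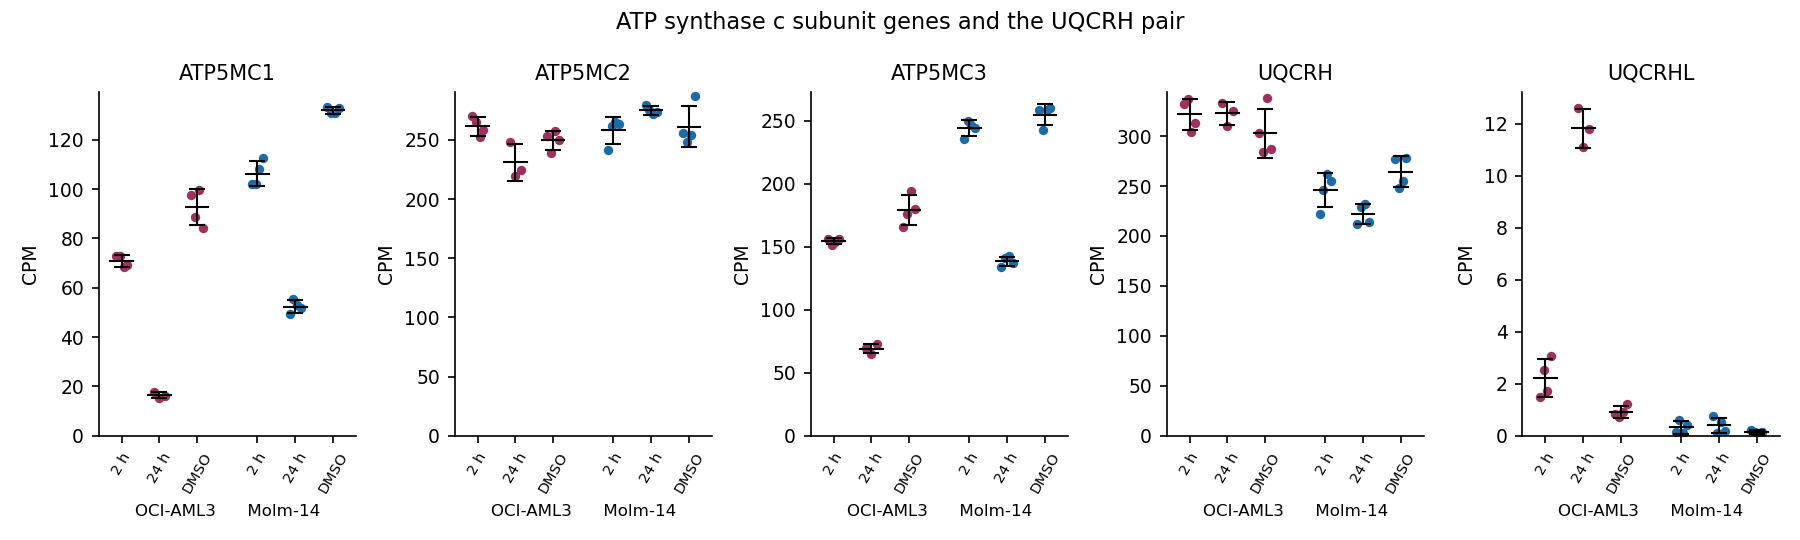
CPM per library (points) with the mean and SD (bars) of the 3 c subunit genes and of UQCRH and UQCRHL, by line and group; each panel has its own linear axis from 0. ATP5MC1 reaches 15.4 to 17.8 CPM in OCI-AML3 at 24 h while ATP5MC2 stays between 219.6 and 249 CPM, and UQCRHL reaches 11.1 to 12.6 CPM.

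In DMSO the lines differed for most members. OCI-AML3 was lower than Molm-14 for 55 members and higher for 20, beside 37.4% and 45% of all genes, and the member median was -0.35 beside 0.07. All 13 complex IV genes were lower in OCI-AML3 (median -0.69), among them COX5A and COX6B1 (-1.03 each), while complex I was mixed, with 22 lower and 14 higher. UQCRHL had the largest difference (2.09 ± 0.37, adjusted p = 8.38e-06), at 73 reads in OCI-AML3 and 10 in Molm-14, a ratio of 6.45 (interval 3.31 to 14). Among members whose higher group averaged 5 CPM or more, the largest were those of NDUFA4L2 (-1.64 ± 0.19), NDUFS7 (-1.24 ± 0.06), NDUFA8 (1.21 ± 0.05), NDUFA12 (-1.19 ± 0.05) and UQCRFS1 (-1.06 ± 0.05). NDUFS7, a core subunit on the electron path to ubiquinone, stood at 76.6, 80.4, 87.7 and 91.6 CPM in OCI-AML3 in DMSO and 192, 193, 203 and 204 CPM in Molm-14 in DMSO (adjusted p = 1.09e-18). NDUFA8 stood at 101, 102, 109 and 119 CPM in OCI-AML3 and 45.0, 45.3, 46.4 and 48.8 CPM in Molm-14 (adjusted p = 1.01e-19). Neither pair of groups overlapped.

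At 24 h the fall was deeper in OCI-AML3. The log2 fold changes of all genes also spread more widely there, with an SD of 1.26 beside 0.85 in Molm-14. Whether the deeper fall is particular to the subunits was not tested. The difference in response (OCI-AML3 minus Molm-14) was called lower for 55 members and higher for 7, beside 36.8% and 28.6% of all genes, with a median of -0.26 beside -0.05. The largest were UQCRHL (2.7 ± 0.55, adjusted p = 9.43e-05), NDUFS5 (-1.33 ± 0.08, adjusted p = 1.74e-14), ATP5MC1 (-1.15 ± 0.08, adjusted p = 1.04e-13), NDUFS6 (-1.11 ± 0.07, adjusted p = 1.47e-14) and ATP5MK (-0.87 ± 0.09, adjusted p = 1.24e-09). Complex V had 14 of 17 genes with a called lower response in OCI-AML3, and complex IV 7 of 13. Across the 81 genes the responses of the lines at 24 h, which share no library, had Pearson's r = 0.85 and Spearman's rho = 0.81 (r = 0.84 without UQCRHL). Across all genes r was 0.71. These are correlations across genes of the same libraries, which are not independent replicates. Of the members, 72 fell in both lines.

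**Figure D4:**
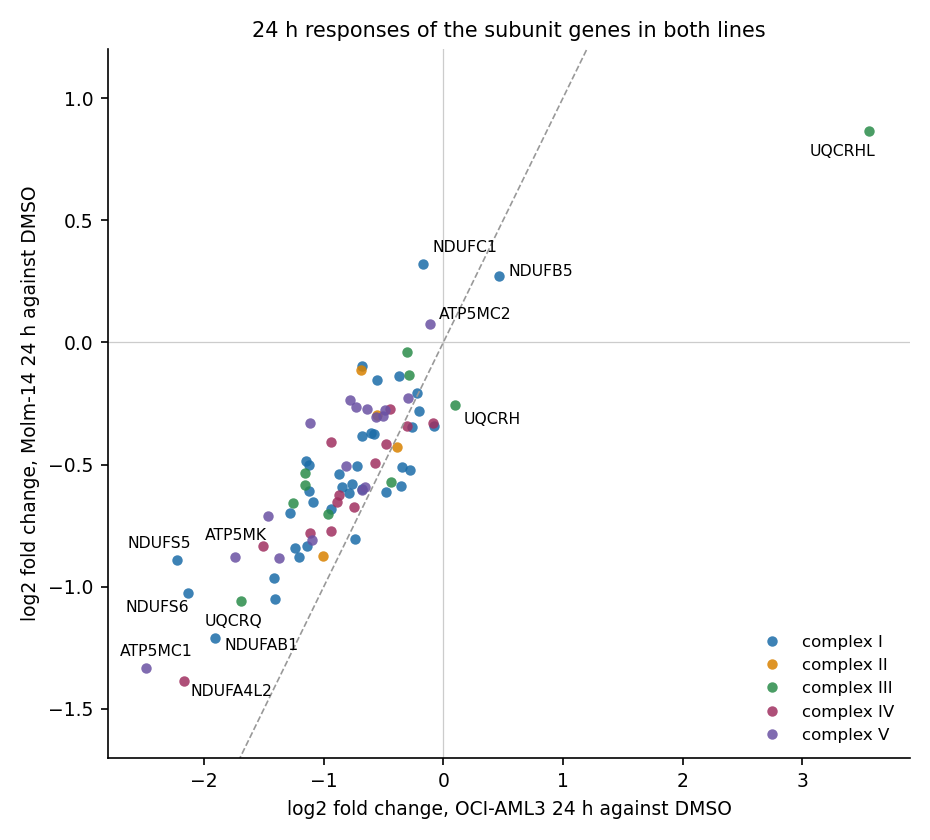
Log2 fold change at 24 h against DMSO in OCI-AML3 (x axis) and Molm-14 (y axis) for the 81 genes, coloured by complex, with the line of equal response dashed. Most points lie left of the dashed line (66 of 81 lower in OCI-AML3), and UQCRHL, NDUFB5, NDUFC1, ATP5MC2 and UQCRH lie away from the lower left.

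At 2 h the responses differed for few members, 10 higher and 2 lower in OCI-AML3 than in Molm-14, beside 19.2% and 19.5% of all genes. The largest were NDUFV3 (0.49 ± 0.08, adjusted p = 1.21e-05), NDUFS3 (0.32 ± 0.08, adjusted p = 0.00163), COX7A2L (0.32 ± 0.07, adjusted p = 0.000815), SDHD (0.28 ± 0.07, adjusted p = 0.00151) and NDUFV2 (0.24 ± 0.06, adjusted p = 0.00262). NDUFS3, a core subunit, stood at 89.0, 92.8, 95.5 and 96.2 CPM in OCI-AML3 at 2 h, against 78.2, 84.0, 84.6 and 97.1 CPM in DMSO, and at 95.8, 97.6, 97.8 and 99.2 CPM in Molm-14 at 2 h, against 103, 109, 117 and 119 CPM in DMSO. The treated libraries overlapped DMSO in OCI-AML3 and lay below it in Molm-14.

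In lists of other genes of the pathway the counts at 24 h ran from a majority lower to a share near that of all genes, of which 42% fell in OCI-AML3 and 38.6% in Molm-14 at 24 h, and 30.8% in each line at 2 h. Of 56 assembly factors, which build the complexes and are not part of them, 46 fell and 5 rose in OCI-AML3 (median -0.51), and 42 fell and 5 rose in Molm-14 (-0.55). At 2 h 29 were lower in OCI-AML3 (51.8%, beside 30.8% of all genes) and 38 in Molm-14 (67.9%, beside 30.8%), and the difference from the subunits was not tested. COA7, needed for complex IV, was at -1.15 at 2 h and -2.39 at 24 h in OCI-AML3 and at -1.07 and -0.97 in Molm-14. NDUFAF4, needed for complex I, was at -1.21 and -2.09 in OCI-AML3 and at -1.22 and -1.43 in Molm-14, all of them called. UQCC2, needed for complex III, was at -1.91 in OCI-AML3 and -0.74 in Molm-14 at 24 h, both called.

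Of 20 genes of the import channels that bring subunits into mitochondria, 18 in OCI-AML3 (90%) and 19 in Molm-14 (95%) had fallen at 2 h. This stood beside 30.8% of all genes in each line. At 24 h 19 had fallen in each line (95%, medians -1.55 and -1.03), beside 42% of all genes in OCI-AML3 and 38.6% in Molm-14. TOMM40, the pore of the outer membrane, stood at 133, 134, 141 and 148 CPM in OCI-AML3 at 2 h and 33.7, 35.4 and 36.8 CPM at 24 h, against 247, 265, 292 and 297 CPM in DMSO. The groups were separate, with a log2 fold change of -0.98 ± 0.05 at 2 h and -2.96 ± 0.05 at 24 h (adjusted p = 1.54e-16 and 1.11e-28). In Molm-14 TOMM40 was at -0.79 ± 0.05 and -1.53 ± 0.05, both called.

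The tricarboxylic acid cycle and pyruvate dehydrogenase genes, which supply NADH and succinate, fell in 16 of 17 cases in both lines at 24 h (medians -0.66 in OCI-AML3 and -0.53 in Molm-14), and at 2 h 4 were lower in each line (23.5%, beside 30.8% of all genes). DLAT, the E2 subunit of pyruvate dehydrogenase, was at -1.69 in OCI-AML3 and -1.16 in Molm-14 at 24 h, and FH, fumarase, at -1.52 and -0.98. Of 21 genes of coenzyme Q, cytochrome c and other electron donors, 13 fell (61.9%) and 6 rose (28.6%) in OCI-AML3 at 24 h. In Molm-14 16 fell (76.2%) and 3 rose (14.3%). Of all genes 42% fell and 42.4% rose in OCI-AML3, and 38.6% fell and 37.7% rose in Molm-14. CYCS, cytochrome c itself, stood at 111, 122, 126 and 127 CPM in OCI-AML3 at 2 h and 34.2, 34.7 and 36.3 CPM at 24 h, against 206, 219, 221 and 229 CPM in DMSO. This fall was larger than that of any subunit (-2.64 ± 0.05, adjusted p = 1.37e-27), and in Molm-14 it was -1.41 ± 0.05 (adjusted p = 3.89e-21). PDSS1, which makes the side chain of coenzyme Q, had log2 fold changes of -2.7 in OCI-AML3 and -1.13 in Molm-14.

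Of the 13 protein genes of the mitochondrial genome 6 fell in OCI-AML3 at 24 h (46.2%, near the 42% of all genes) and 7 were not called (median -0.12), and their summed share of the CPM was 4.78% ± 0.35 at 2 h, 4.62% ± 0.18 at 24 h and 4.57% ± 0.46 in DMSO. In Molm-14 all 13 fell (median -0.46), and the share was 4.47% ± 0.18 at 2 h, 3.18% ± 0.23 at 24 h and 4.02% ± 0.41 in DMSO (SD). MT-CO3 differed in response by 0.50 ± 0.08 (adjusted p = 3.39e-06), with -0.06 in OCI-AML3 and -0.55 in Molm-14. The shares are of the summed CPM, and the fold changes use the authors' scaling, so the 2 measures need not move alike. In OCI-AML3 that sum was 914526 to 927007 at 24 h and 1.017e+06 to 1.054e+06 in DMSO. The calls of the mitochondrial genes under other scalings were not examined. These transcripts were read from poly(A) RNA, and their shares varied more between DMSO libraries than those of the nuclear subunits.

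Of 23 regulators of mitochondrial gene expression 19 fell (82.6%) and 4 rose (17.4%) in OCI-AML3 at 24 h (median -0.91). In Molm-14 17 fell (73.9%) and 5 rose (21.7%) at 24 h (median -0.65). Of all genes 42% fell and 42.4% rose in OCI-AML3, and 38.6% fell and 37.7% rose in Molm-14. At 2 h 14 regulators were already lower in OCI-AML3 (60.9%) and 17 in Molm-14 (73.9%), beside 30.8% of all genes in each line. TFAM, which packages and transcribes the mitochondrial genome, fell to -1.56 in OCI-AML3 and -1.34 in Molm-14, and TWNK, its replicative helicase, to -2.28 and -1.19. MYC, a transcription factor known to drive many of these genes, stood at 69.3, 69.96, 70.2 and 79.7 CPM in OCI-AML3 at 2 h and 54.1, 56.0 and 58.3 CPM at 24 h, against 362, 372, 381 and 382 CPM in DMSO. Molm-14 libraries had 59.3, 61.7, 62.7 and 66.5 CPM at 2 h and 310.2, 316, 323 and 326 CPM at 24 h, against 597, 601, 601 and 604 CPM in DMSO. MYC was low at both times in OCI-AML3, and lower at 2 h than at 24 h in Molm-14. The median of the subunits was lowest at 24 h in both lines. Whether MYC has a part in the fall of the subunits was not tested. NRF1, a factor known for respiratory genes, was at -0.97 in OCI-AML3 and -0.20 in Molm-14 at 24 h, both called.

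**Figure D5:**
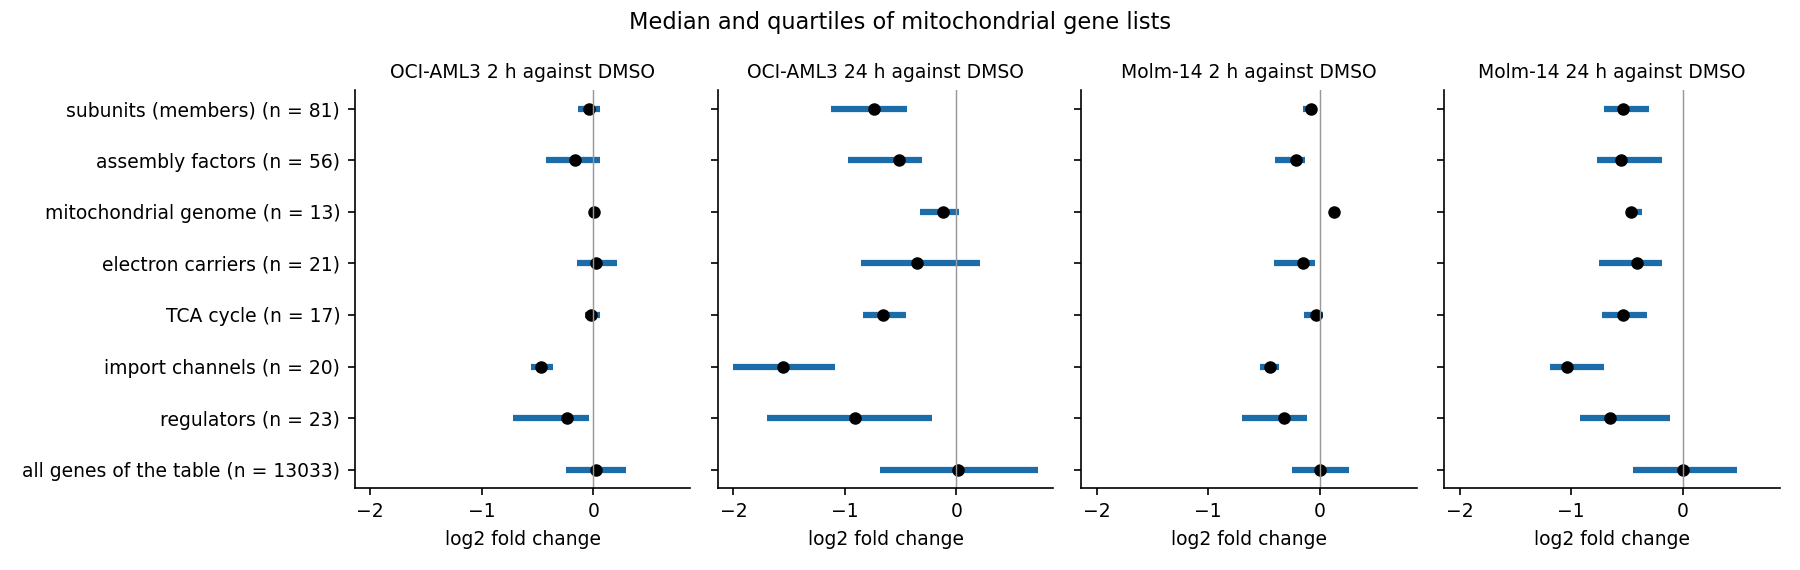
Median (points) and quartiles (bars) of the log2 fold change against DMSO (x axis, common to the panels) for the 81 subunits, 6 other lists and all 13033 genes, in 4 comparisons. Import channels are at -0.47 and -0.44 at 2 h in OCI-AML3 and Molm-14, when the subunits are at -0.04 and -0.08, and all lists are below all genes at 24 h.

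Markers moved with the treatment as well. Of the 9 myeloid markers 8 rose in OCI-AML3 at 24 h (88.9%, beside 42.4% of all genes, median 1.35), and 6 rose and 1 fell in Molm-14 (66.7% higher, beside 37.7%, median 0.15). CSF1R had the largest rise in both lines (3.71 in OCI-AML3 and 3.64 in Molm-14). MPO, a granule enzyme of early myeloid cells, fell in Molm-14 (-2.15 ± 0.23, adjusted p = 9.73e-10), to at most 0.998 CPM at 24 h, against 2.36 to 3.12 CPM in DMSO, and was not called in OCI-AML3 (-0.51, adjusted p = 0.0599). COL1A2 stood at 3.74 to 4.85 CPM in OCI-AML3 at 24 h, against 1.03 to 2.27 CPM in DMSO, and at 0 in all Molm-14 libraries at 24 h, with at most 0.0919 CPM in DMSO. The part of these shifts in the fall of the subunits was not tested.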

How the data were processed

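Poly(A) RNA of 23 libraries in 6 groups was analysed. The deposited table holds log2 CPM values made by the authors. The submitters' processing notes list limma 3.38.3, edgeR 3.24.3, RSEM 1.3.3, STAR 2.7.8a, Trimmomatic 0.36 and MultiQC 1.28, with the build hg38 (GRCh38). The files show a common floor of 0.105 CPM (log2 -3.26), which equals 1.96 reads at the mean effective library size. Every gene has at least 1 CPM in at least 2 libraries. Of the values at or under 20 reads, 75.1% to 82.1% were whole to a tolerance of 0.05 read, so depth was recovered from these steps and intervals on reads cover counting error only.

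A linear model of the 6 group means was fitted to all 13033 genes with limma 3.58.1 in R 4.3.3 (trended, robust variances), with Benjamini-Hochberg adjustment over all genes and a threshold of 0.05. A count test had been foreseen as well; limma was used because the values are log2. Figures and motif searches used Python 3.11.15, scipy 1.17.1 and matplotlib 3.10.9. The limma fit was tried on simulated data for OCI-AML3 at 24 h against DMSO only, and the other steps were not tried in this way. The members and the other gene lists were chosen with earlier results of these data known. Genes named were the 4 largest falls and 4 largest rises against DMSO whose higher group averaged 5 CPM or more, the 5 largest differences between lines or responses under the same 5 CPM limit, the paralog sets, and up to 3 genes per other list by smallest adjusted p at 24 h. MYC, NRF1, CSF1R, MPO, UQCRHL, COX subunits and other members given by value only were named for their roles after their values were seen. Alternatives were other scalings, pseudocounts and filters, voom on recovered reads, each line alone, a replicate block, and leaving out each library. Values of 1 member are not reported here by name. Among the other members, promoters were absent from the RefSeq table for ATP5F1B, ATP5F1D, ATP5MC3, ATP5MF, COX6C, CYC1, NDUFA4, NDUFA4L2, NDUFB5, NDUFB9, NDUFC2, NDUFS5, SDHC, UQCRB and UQCRHL.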

Additional observations from a re-analysis of the deposited data

Results flagged for a closer look

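Of 185 groups of 4 libraries tested for a library far from the others, 14 had one, where chance gives about 1 in 20. In Molm-14 at 2 h replicate 1 was the lowest for ATP5MC2 (241 CPM), ATP5MK (116 CPM), COX7B (67.6 CPM) and NDUFC1 (34.6 CPM). At 24 h in Molm-14 replicate 1 was low for COX7B (44.6 CPM), and replicate 3 stood apart in the mean log2 CPM of complex IV (6.51). In Molm-14 DMSO libraries, replicate 2 was low for ATP5MC3 (243 CPM), replicate 3 was low for UQCRQ (86.7 CPM) and replicate 1 was high for SDHA (279.8 CPM). In OCI-AML3 at 2 h replicate 3 was low for NDUFB5 (69.1 CPM), for the mean log2 CPM of all members (6.47) and for that of complex I (6.18). In OCI-AML3 in DMSO replicate 3 was high for ATP5MK (93.7 CPM) and NDUFB5 (68.3 CPM).

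Responses to RMC-7977 that differed between the lines (OCI-AML3 minus Molm-14, limma, adjusted p below 0.05) were, at 2 h, those of NDUFV3 (0.49), NDUFS3 (0.32), COX7A2L (0.32), SDHD (0.28) and NDUFV2 (0.24). At 24 h they were those of UQCRHL (2.7), NDUFS5 (-1.33), ATP5MC1 (-1.15), NDUFS6 (-1.11) and ATP5MK (-0.87).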

How the results depend on the processing

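Most members fell at 24 h under every setting: over all alternatives run, 69 to 76 members fell in OCI-AML3 and 69 to 75 in Molm-14. Counts that moved by more than 1.5 times were mostly small. Library totals in place of the authors' scaling gave 13 lower and 24 higher members in OCI-AML3 at 2 h, 4 higher between 24 h and 2 h in Molm-14, 1 lower and 17 higher differences in response at 2 h, and 11 higher at 24 h. Median-of-ratios scaling gave 13 higher in OCI-AML3 at 2 h and 4 higher between 24 h and 2 h in Molm-14. A minimum mean of 5 CPM over all libraries, which removes UQCRHL and NDUFA4L2, left 1 higher member in OCI-AML3 at 24 h against DMSO and 1 against 2 h. Voom on recovered reads gave 4 lower differences in response at 2 h. Leaving out single libraries gave 13 to 28 lower and 5 to 15 higher members in OCI-AML3 at 2 h (13 and 15 without DMSO replicate 3). It gave 1 to 5 lower and 7 to 15 higher differences in response at 2 h, and 4 to 10 higher at 24 h (4 without OCI-AML3 24 h replicate 4). With library totals the OCI-AML3 24 h value of ATP5MC2 turned to 0.058 and that of NDUFC1 to 0.0028. Beyond what the settings construct, the cause was not tested. UQCRH summed with UQCRHL, an alternative chosen after seeing the data, was called higher in OCI-AML3 at 24 h (0.14). With the replicate block 76 members fell and 2 rose in OCI-AML3 at 24 h, 75 and 3 in Molm-14, 22 and 6 in OCI-AML3 at 2 h, and 19 and 2 in Molm-14 at 2 h. No clear pairing of libraries by number was seen. Over 22 same-numbered pairs the correlation of deviations was -0.35 to 0.26, and 6 libraries correlated best with their own number. With so few libraries per group these values cannot exclude a pairing. A count test with edgeR, planned for a table of counts, was not run on the log2 values. Recovered reads, not all of them whole, served for voom and for the read totals. In addition, fitting each line alone gives no value between lines. Depth limits UQCRHL and NDUFA4L2, the 2 members with a mean under 10 CPM.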
